A study of Homo sapiens with 4 samples.

Results

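The 10 genes described here encode the enzymes that make and degrade prostaglandins, and a pair of their receptors: PLA2G4A, PTGS1, PTGS2, PTGES, PTGES2, PTGES3, PTGIS, HPGD, PTGER2 and PTGER4. They were taken by gene symbol, without regard to their values, from a table that lists 19475 symbols, and all 10 were found in it. RNA-seq had been performed in 4 libraries of SKOV3 cells, an established line from a human ovarian carcinoma. The TCP group held 2 libraries of cells on a tissue culture plate (TCP), labeled day 0, and the polymer X group held 2 libraries of tumor spheroids grown on a plate coated with the polymer thin film polymer X, labeled day 8. No genetic change or drug separates the groups. The study's methods name fetal bovine serum for routine SKOV3 culture and serum replacement for spheroids, which were dissociated with accutase along the way. The labels give 1 medium with serum replacement for all 4 libraries, so it is uncertain in which medium the TCP cells were kept. Substrate, culture time and possibly medium changed together, and their parts cannot be told apart. Nothing in the labels says whether the 2 libraries of a group came from separate cultures, so the p-values below measure only the spread between these libraries.

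Prostaglandins are lipid signals made from arachidonic acid. Phospholipase A2 frees arachidonic acid from membranes, the cyclooxygenases PTGS1 (COX-1) and PTGS2 (COX-2) turn it into prostaglandin H, and terminal synthases then form prostaglandin E, prostacyclin or prostaglandin D. In epithelial tumors, including those of the ovary, the branch best known is that of prostaglandin E, which acts on EP receptors coupled to cyclic AMP and is inactivated by the dehydrogenase HPGD.

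The authors deposited FPKM, in which the tags on a transcript are divided by its length and by the library total. The smallest steps between the values gave totals of 38403000 to 44917000 tags in a library, and 3 tags were taken as the floor of detection. A symbol listed with several transcripts was represented by the one whose mean FPKM was highest. Genes that reached an FPKM of 1 in 2 or more libraries, 11964 in all, entered a single limma fit on log2(FPKM + 1). A call of higher or lower on polymer X required both an adjusted p under 0.05 and a log2 fold change of 1 or more in size. For genes of low FPKM, the added 1 makes fold changes appear smaller than they are. The smallest two-sided p that an exact permutation test of 2 libraries against 2 allows is 0.33.

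The 2 cyclooxygenase mRNAs were more abundant in the spheroids, the prostacyclin synthase mRNA was moderately more abundant, and the mRNA of the most abundant prostaglandin E synthase, PTGES3, was less abundant, at 0.455 of the TCP level. The mRNAs of the inducible prostaglandin E synthase PTGES and of the receptor PTGER2 lay at nearly the same level in both groups. Of the 10 genes, 4 passed the filter, each with an FPKM above 1 in all 4 libraries. Of these 4, 1 was called higher (PTGS1), against 10.7% of all tested genes, and 1 was called lower (PTGES3), against 9.45%. PTGES2 and PTGIS had adjusted p-values under 0.05 with changes under the fold minimum. The median log2 fold change of the 4 was 0.11, against -0.06 over all tested genes. The other 6 genes were below the filter and are described by their tags. Without regard to the filter, 5 of the 10 genes lay higher in both polymer X libraries than in both TCP libraries, against 42.3% of the 16883 genes with any tag, and 3 lay lower in both, against 37.8%.

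**Figure D1:**
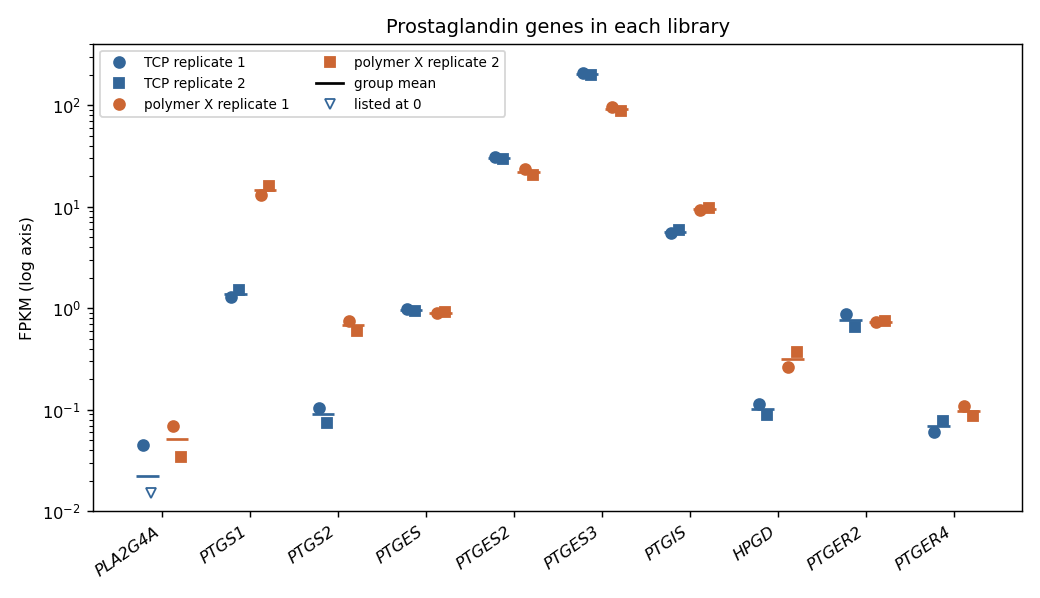
FPKM of the 10 prostaglandin genes (log axis) in the 2 TCP and the 2 polymer X libraries, each point 1 library and each line a group mean, with PLA2G4A in TCP replicate 2 drawn at the lower edge because it is listed at 0. PTGS1 and PTGS2 stand higher in both polymer X libraries, PTGES3 stands lower, and the values above 0 run from 0.034 for PLA2G4A to 206 for PTGES3.

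The order of the levels can be read across genes because FPKM is a value per length. On TCP, PTGES3 had the highest FPKM of the 10, followed by PTGES2, PTGIS, PTGS1, PTGES and PTGER2, and the libraries of these neighbors did not overlap. Below them, HPGD overlapped with PTGS2, and PTGS2 with PTGER4. On polymer X, PTGS1 stood above PTGIS, and PTGS2 had reached the range of PTGER2. The 2 polymer X libraries of PTGS2 lay on either side of those of PTGER2, so these 2 levels were not separated.

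The promoters of both called genes and, for comparison with PTGS1, that of PTGS2 are printed here to show how their sequences differ. PTGS2 was added after its values were seen. Each sequence is the 250 bases before a transcription start in RefSeq on GRCh38.p14, a different build from the hg19 coordinates of the deposited table. RefSeq gives 2 starts for PTGS1, at the ends of chr9:122370283-122370532 and chr9:122375052-122375301 (plus strand). The deposited PTGS1 transcripts start at hg19 positions 125132809, 125133284 and 125137601. The transcript that represents PTGS1 here, NM_001271164, starts at 125133284. Positions were not converted between the builds, so neither printed sequence is tied to that transcript. The PTGS2 sequence is chr1:186680424-186680673 and that of PTGES3 is chr12:56688285-56688534 (both minus strand). Capitals mark matches, on either strand, to the TATA box (TATAAA), the cyclic AMP response element (TGACGTCA), the AP-1 site (TGANTCA), the E-box (CACGTG), the STAT site (TTCNNNGAA) and the GC box (GGGCGG), no 2 of which overlapped in these sequences.
PTGS1, upstream start: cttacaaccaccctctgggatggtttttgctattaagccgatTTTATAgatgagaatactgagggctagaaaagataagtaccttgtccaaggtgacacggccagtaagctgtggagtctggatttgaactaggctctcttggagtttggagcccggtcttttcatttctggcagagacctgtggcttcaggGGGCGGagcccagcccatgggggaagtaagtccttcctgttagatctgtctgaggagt
PTGS1, downstream start: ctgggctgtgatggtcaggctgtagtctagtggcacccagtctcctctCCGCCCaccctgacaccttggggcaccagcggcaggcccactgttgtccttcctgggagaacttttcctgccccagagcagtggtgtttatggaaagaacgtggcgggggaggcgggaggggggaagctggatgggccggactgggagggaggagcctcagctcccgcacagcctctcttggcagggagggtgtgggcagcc
PTGS2: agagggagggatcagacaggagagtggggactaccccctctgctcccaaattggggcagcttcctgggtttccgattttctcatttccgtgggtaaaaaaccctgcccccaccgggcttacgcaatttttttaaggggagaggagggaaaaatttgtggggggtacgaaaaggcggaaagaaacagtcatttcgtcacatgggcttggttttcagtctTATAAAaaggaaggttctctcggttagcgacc
PTGES3: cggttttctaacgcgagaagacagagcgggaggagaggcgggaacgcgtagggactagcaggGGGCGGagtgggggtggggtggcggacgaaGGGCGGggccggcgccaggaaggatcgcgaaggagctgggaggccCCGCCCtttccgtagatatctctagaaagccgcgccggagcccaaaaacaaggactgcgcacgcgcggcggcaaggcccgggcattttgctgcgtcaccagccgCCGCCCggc

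PTGS2 held a TATA box whose first base lies 32 bases before the start. Among 35116 RefSeq promoters of the same length, 10.7% hold this motif. At the upstream start of PTGS1 the TATAAA letters matched on the opposite strand, 208 bases before the start, and a GC box lay at 58 bases. The downstream start of PTGS1 had 1 GC box, 202 bases before it, and PTGES3 had 4, the nearest 9 bases before the start. A GC box is held by 42.6% of all promoters. None of the 4 sequences matched the cyclic AMP response element (1.65% of promoters), the AP-1 site (6.57%), the E-box (6.34%) or the STAT site (6.57%). Only the full letters given above were searched, so half-sites and variants of these elements, which the sequences may hold, were not counted. The G and C share was 49.6% and 65.2% at the 2 starts of PTGS1, 50.4% for PTGS2 and 68.8% for PTGES3, against a median of 58.0% over all promoters. These matches describe letters only, and draw nothing about binding.

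Arachidonic acid release was represented by PLA2G4A, the cytosolic phospholipase A2 (NM_024420, hg19 chromosome 1, 186798032 to 186958113). Its tags numbered 5 and 0 on TCP and 8 and 4 on polymer X. The groups overlapped, and the ratio of tags scaled to library totals (tag ratio), 2.48, had a 95% exact counting interval of 0.812 to 8.98. The ratio was 1.14 without TCP replicate 2 and 1.64 without polymer X replicate 1, and no difference was detectable at this depth. Intervals of this kind cover counting error only, and mates of a read pair or PCR copies among the tags would make them too narrow.

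PTGS1, the cyclooxygenase held to be constitutive in most tissues, which the study treats as a STAT3 target gene, was the only one of the 10 genes called higher in the main test (NM_001271164, hg19 chromosome 9, 125133284 to 125157982). Its FPKM was 1.291 and 1.5 in the TCP libraries and 12.979 and 16.023 in the polymer X libraries. Both polymer X libraries stood far above both TCP libraries. PTGS1 rose from 1.40 ± 0.148 (SD, n = 2) to 14.5 ± 2.15 (SD, n = 2), 10.4-fold, with 2.69 as log2 fold change (standard error 0.10, limma adjusted p = 1.7e-08). This was the rise ranked 115 among the 11964 tested genes. The single ratios of a polymer X to a TCP library lay between 8.65 and 12.4, and over the 7 PTGS1 transcripts listed, which share most tags, the fold lay between 10.4 and 10.8.

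PTGS2, the cyclooxygenase known to be induced by cytokines and growth factors, was listed under the filter in all 4 libraries (NM_000963, hg19 chromosome 1, 186640944 to 186649559). It had 18 and 15 tags on TCP and 135 and 110 on polymer X, or an FPKM of 0.105 and 0.075 against 0.753 and 0.603. PTGS2 was low on polymer X as well, yet both polymer X libraries lay well above both TCP libraries. The tag ratio was 7.66 (95% counting interval 5.31 to 11.4), and the single ratios of libraries lay between 5.74 and 10.0. In a fit without the filter and with a pseudocount of 0.1, the log2 fold change of PTGS2 was 2.03 (standard error 0.19, limma adjusted p = 0.00050). In that fit, added after the low values were seen, 3 of the 10 genes were called higher (PTGS1, PTGS2 and HPGD), against 15.6% of the genes, and 1 was called lower (PTGES3), against 9.15%.

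**Figure D2:**
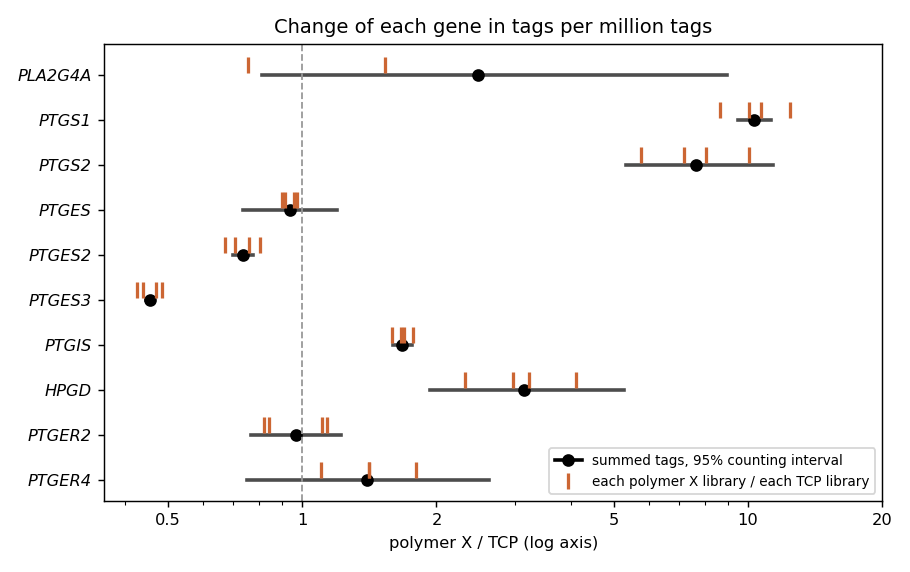
Ratio of polymer X to TCP for each of the 10 genes (log axis), with the black point and bar giving the tag ratio and its 95% counting interval, and each orange tick the ratio of 1 polymer X to 1 TCP library. PLA2G4A has ticks against TCP replicate 1 only, since it is listed at 0 in the other. The intervals of PTGS1, PTGS2, PTGIS and HPGD lie above 1, those of PTGES2 and PTGES3 below it, and those of the other 4 genes span it.

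The levels of both cyclooxygenases were compared to ask which of them dominated in each culture. PTGS1 exceeded PTGS2 in every library, with FPKM ratios of 12.3 and 20 on TCP and 17.2 and 26.6 on polymer X. These ratios overlapped between the groups. PTGS2 made up 7.52% and 4.76% of the summed FPKM of both genes on TCP, and 5.48% and 3.63% on polymer X. On the log2 scale the ratio differed by 0.45 without a pseudocount (exact permutation test, p = 0.667) and by 2.07 with a pseudocount of 1 (exact permutation test, p = 0.33). The latter difference is raised by the pseudocount, which exceeds every PTGS2 value. With 2 libraries against 2 the test cannot give a p below 0.33, so it could not have detected an unequal change of both genes. Without a pseudocount the ratios overlapped, and whether the genes changed unequally stays undecided.

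**Figure D3:**
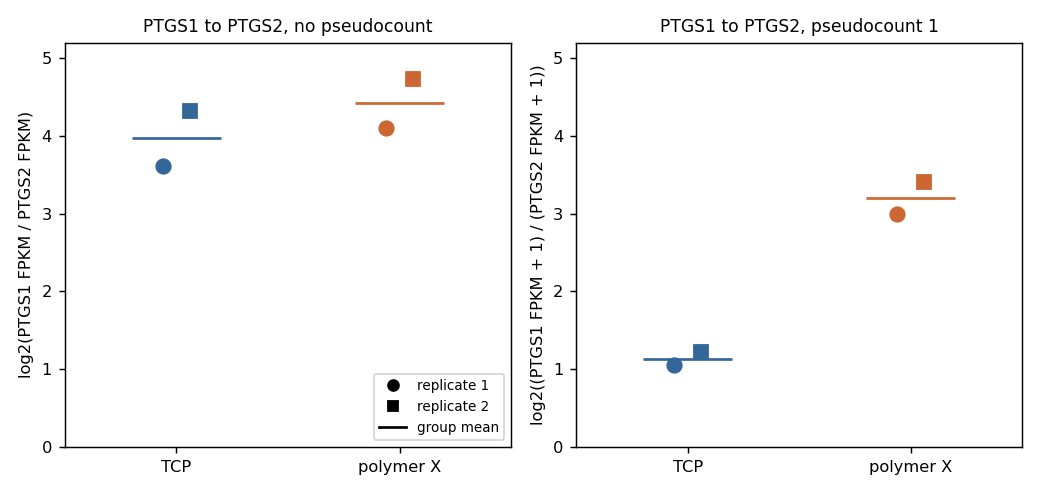
Log2 ratio of PTGS1 to PTGS2 FPKM in each library without a pseudocount (left) and with a pseudocount of 1 (right), each point 1 library and each line a group mean. The groups overlap on the left and separate on the right.

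The 3 prostaglandin E synthases all had lower FPKM in both polymer X libraries, as did 37.8% of the 16883 genes with any tag. PTGES was lower by less than its counting error, and differences among the 3 were not tested. PTGES, the membrane-bound inducible synthase that is coupled to PTGS2 (NM_004878, hg19 chromosome 9, 132500615 to 132515344), had an FPKM of 0.994 and 0.937 on TCP and 0.897 and 0.910 on polymer X. It lay just under the filter, and its tag ratio was 0.938 (95% counting interval 0.734 to 1.20). The polymer X libraries lay below the TCP libraries by less than the counting error.

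PTGES2, a membrane-associated synthase (NM_001256335, hg19 chromosome 9, 130882972 to 130890467), had an FPKM of 30.7 and 29.2 on TCP and 23.4 and 20.6 on polymer X. Both polymer X libraries were lower, and the log2 fold change was -0.43 (standard error 0.07, limma adjusted p = 0.00032), under the fold minimum for a call.

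PTGES3 is the cytosolic synthase and also p23, a co-chaperone of HSP90 (NM_001282605, hg19 chromosome 12, 57057125 to 57082192). Its FPKM was 206 and 199 on TCP and 96.7 and 87.7 on polymer X. It fell from 203 ± 4.70 (SD, n = 2) to 92.2 ± 6.38 (SD, n = 2), to 0.455 of the TCP level, with -1.13 as log2 fold change (standard error 0.06, limma adjusted p = 2.7e-07). Under quantile normalization the log2 fold change was -0.77, which is no longer a call. The 6 PTGES3 transcripts gave folds of 0.452 to 0.455.

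PTGIS, the prostacyclin synthase (NM_000961, hg19 chromosome 20, 48120411 to 48184707), had an FPKM of 5.496 and 5.85 on TCP and 9.30 and 9.75 on polymer X. Both polymer X libraries were higher, 1.68-fold in the mean, with 0.66 as log2 fold change (standard error 0.07, limma adjusted p = 1.4e-05). This lay under the fold minimum, and 38.6% of the tested genes had a larger absolute change.

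HPGD, the dehydrogenase that inactivates prostaglandins, was scarce (NM_001256301, hg19 chromosome 4, 175411328 to 175444044). It had 12 and 11 tags on TCP and 29 and 41 on polymer X, that is, an FPKM of 0.114 and 0.089 against 0.264 and 0.367. Both polymer X libraries were higher, with a tag ratio of 3.14 (95% counting interval 1.94 to 5.27). In the fit without the filter and with a pseudocount of 0.1, the log2 fold change was 1.04 (standard error 0.19, limma adjusted p = 0.0066), just past the fold minimum. Over the 6 HPGD transcripts the fold lay between 2.57 and 3.11.

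The receptors were low in both cultures. PTGER2, the EP2 receptor (NM_000956, hg19 chromosome 14, 52781016 to 52795322), had an FPKM of 0.884 and 0.657 on TCP and 0.727 and 0.745 on polymer X. The TCP libraries lay on either side of the polymer X libraries, and the tag ratio was 0.967 (95% counting interval 0.767 to 1.22). PTGER4, the EP4 receptor (NM_000958, hg19 chromosome 5, 40680032 to 40693837), had 8 and 12 tags on TCP and 15 and 12 on polymer X. Its FPKM was slightly higher in both polymer X libraries, but the interval of its tag ratio, 0.753 to 2.62, held 1, and no difference was detectable at this depth.

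In the list of 25 other genes of arachidonate release and prostanoid metabolism, 16 genes were tested, of which 4 were called higher and 0 lower. Over all tested genes, 10.7% were called higher and 9.45% lower. At an unadjusted limma p under 0.05 with no fold minimum, 10 were higher and 3 lower, but over all tested genes this loose criterion was met by 37.9% and 44.1%, so the count says little about this list. The median log2 fold change of the 16 was 0.31, against -0.06 over all tested genes. PTGDS, the lipocalin-type prostaglandin D synthase, had 2 and 0 tags on TCP, and an FPKM of 16.996 and 20.9 on polymer X. With the TCP level set to 3 tags per library, PTGDS on polymer X was at least 175-fold higher (log2 fold change 4.27, adjusted p = 1.9e-09 from limma, which depends on the pseudocount).

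The other called enzymes release or degrade the precursors. PLA2G6, the calcium-independent phospholipase A2, rose from an FPKM of 0.979 ± 0.103 (SD, n = 2) to 8.15 ± 0.0905 (SD, n = 2), with a log2 fold change of 2.21 (adjusted p = 1.1e-08 from limma). PLA2G4B, another cytosolic phospholipase A2, rose with a log2 fold change of 1.35 (adjusted p = 1.2e-07 from limma). It lies within the readthrough locus JMJD7-PLA2G4B, and tags of both cannot be told apart. FAAH, which hydrolyzes the arachidonate amide anandamide, rose with a log2 fold change of 1.40 (adjusted p = 1.3e-06 from limma), and had 0.99 under quantile normalization, which is no call. PTGDS, FAAH and CBR3, the last of which was not called, passed the filter through the polymer X libraries alone. A difference was therefore built into their selection, and it enters the counts and the median of the list.

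The most abundant genes of the list were not called. ANXA1 (annexin A1, an inhibitor of phospholipase A2) had an FPKM of 339 ± 23.9 (SD, n = 2) on TCP and 452 ± 11.8 (SD, n = 2) on polymer X. AKR1B1 (aldose reductase, which can form prostaglandin F) had 301 ± 1.502 (SD, n = 2) and 220 ± 13.6 (SD, n = 2). CBR1, a carbonyl reductase of prostaglandins, had 148 ± 6.88 (SD, n = 2) and 141 ± 3.03 (SD, n = 2), and its log2 fold change of -0.07 turned to 0.27 under quantile normalization. PLA2G4C, a further phospholipase A2 chosen here after its values were seen, was under the filter with 16 and 10 tags on TCP and 76 and 86 on polymer X.

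Among the 13 other prostanoid receptors, carriers and nuclear receptors, 6 were tested and 0 were called in either direction by limma. Over all tested genes, 10.7% were called higher and 9.45% lower. At an unadjusted limma p under 0.05, 3 of the 6 were higher and 3 lower. Most tested genes met this criterion, and PTGFR reached it after passing the filter through the polymer X libraries alone. The 3 most abundant, PTGFRN, PPARD and PPARG, had log2 fold changes of -0.29, 0.36 and -0.54. These are a regulator of the prostaglandin F receptor and a pair of nuclear receptors that bind fatty acids and prostanoids. In the fit without the filter and with a pseudocount of 0.1, PTGFR, the prostaglandin F receptor, was called higher and PTGDR2, a prostaglandin D receptor, lower, and both are named after their values were seen. PTGFR had an FPKM of 0.394 and 0.491 on TCP and 1.07 and 1.05 on polymer X. PTGDR2 had 0.968 and 1.08 on TCP and 0.404 and 0.389 on polymer X. Of the cell-surface prostanoid receptors listed, none reached an FPKM above 1.08 in any library, while the nuclear receptors PPARD and PPARG lay between 5.26 and 10.9.

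Lipoxygenases use the same arachidonic acid to make leukotrienes. Of the 17 genes of this list, 7 were tested, and 1 was called higher and 0 lower by limma, against 10.7% and 9.45% of all tested genes. The median log2 fold change was 0.29, against -0.06 over all tested genes. At an unadjusted p under 0.05, which most tested genes met, 5 were higher and 1 lower. Of the 7, ALOX5, ALOX12 and ALOX5AP passed the filter through 1 group alone, which built their direction into the selection. ALOX5, the arachidonate 5-lipoxygenase, rose from an FPKM of 0.402 and 0.308 on TCP to 17.1 in both polymer X libraries, with 3.74 as log2 fold change (standard error 0.07, limma adjusted p = 8.5e-10). ALOX5AP, the protein that presents arachidonic acid to ALOX5, is named after its values were seen, with an FPKM of 1.27 and 1.39 on TCP and 0.306 and 0.164 on polymer X. It was not called in the main test (log2 fold change -0.92) and was called lower without the filter and with a pseudocount of 0.1. In that fit ALOX12 and LTC4S were called higher beside ALOX5, where 15.6% of all genes were called higher and 9.15% lower. LTC4S was not above the floor of detection on TCP, with 2 and 1 tags, and had 9 and 7 on polymer X. LTA4H, LTB4R2 and PTGR3 (listed as ZADH2), the most abundant genes not called, had log2 fold changes of 0.17, 0.29 and -0.15. PTGR3 is a prostaglandin reductase rather than a lipoxygenase or leukotriene gene, and it enters the counts and the median of this list.

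**Figure D4:**
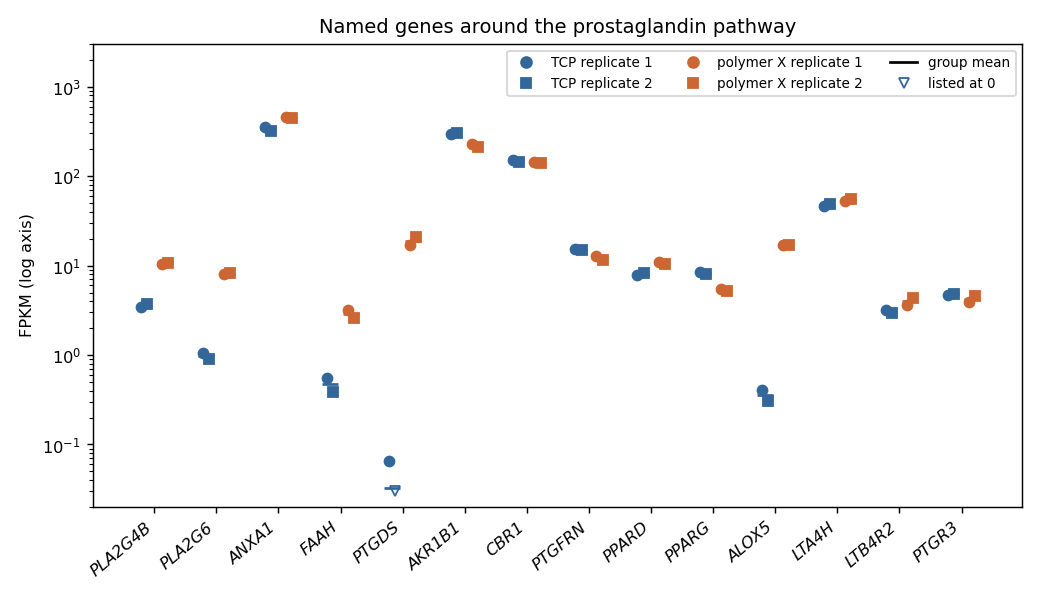
FPKM (log axis) of the genes named from the lists of other prostanoid metabolism genes, receptors and carriers, and lipoxygenase and leukotriene genes. Each point is 1 library and each line a group mean. PTGDS, listed at 0 in TCP replicate 2 and drawn at the lower edge there, and ALOX5 show the widest gaps between the groups, and the most abundant genes lie close together.

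EP2 and EP4 act through cyclic AMP. Of the 28 genes of cyclic AMP signaling and response, 23 were tested, 4 were called higher and 5 lower, against 10.7% and 9.45% of all tested genes, and the median log2 fold change was -0.24. Members moved in both directions. PER1 (a clock gene), RAPGEF4 and RAPGEF3 (cyclic AMP-activated exchange factors) and SIK1 (a cyclic AMP-induced kinase) rose with log2 fold changes of 1.30, 1.26, 1.06 and 1.13. SIK1 shares sequence with its copy SIK1B, and its value is uncertain. RAPGEF4 passed the filter through the polymer X libraries alone. RAPGEF4 and RAPGEF3 had 0.89 and 0.87 under quantile normalization and were then not called. DUSP1 (a phosphatase of MAP kinases), CREB3L1, PRKAR2A (a regulatory subunit of protein kinase A), ATF3 and CREB1 fell by 1.64, 1.46, 1.44, 1.29 and 1.08 on the log2 scale. CREB1 was not called with the longest transcript (-0.31), the summed transcripts (-0.69), quantile normalization (-0.97) or without polymer X replicate 1 (-0.93). GNAS, the stimulatory G protein subunit, FOS and PRKAR1A were not called, with log2 fold changes of 0.08, 0.36 and -0.24, and PRKAR1A turned to 0.08 under quantile normalization and 0.06 with the longest transcript.

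**Figure D5:**
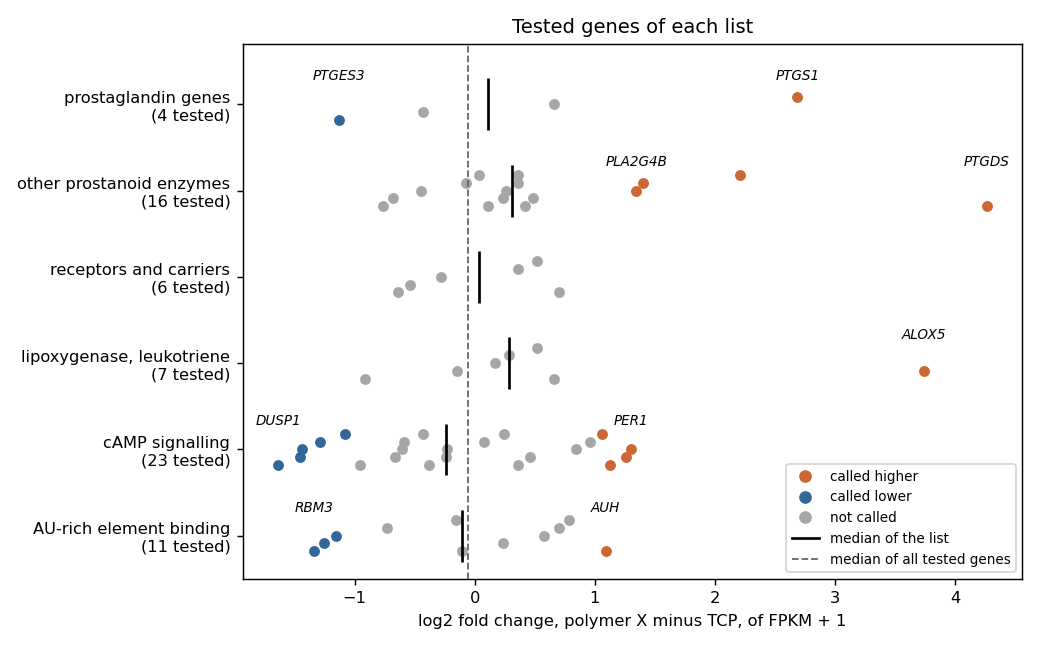
Log2 fold change (polymer X minus TCP, of FPKM + 1) of every tested gene of the prostaglandin genes and of 5 wider lists, colored by call, with the median of each list as a black bar and that of all tested genes as a dashed line. The medians lie between -0.24 and 0.31, and PTGDS, ALOX5 and PTGS1 are the points farthest to the right.

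PTGS1 is the cyclooxygenase of platelets, and the levels of other cell type markers are therefore given. Of the platelet and megakaryocyte markers, PPBP was at 0 in all libraries, PF4 was at 0 on polymer X with 2 and 4 tags on TCP, and ITGA2B had an FPKM of 0.621 and 0.452 on TCP and 2.72 and 3.00 on polymer X. The summed FPKM of 4 leukocyte markers was 0.060 to 0.091 on TCP and 0.521 to 0.747 on polymer X, with CD3E at 0 throughout. On polymer X the sum was mainly PTPRC, which had 1 and 0 tags on TCP and 92 and 106 on polymer X. The sum of 3 endothelial markers was 0.0090 to 0.019 on TCP and 0.489 to 0.617 on polymer X. There it was mainly PECAM1, with 0 tags in both TCP libraries and 102 and 83 on polymer X. CD14, CD79A and CDH5 overlapped between the groups. Of these 10 markers, 4 lay higher in both polymer X libraries. Over the 16883 genes with any tag the share was 42.3%, but PPBP and CD3E had no tag and are outside that base. Their part in the results was not tested. In bulk RNA, fewer cells of a type and less RNA per cell cannot be told apart. Of the 8 epithelial and ovarian carcinoma markers, KRT7, KRT8, KRT18, ERBB2 and PAX8 had an FPKM above 1 in all libraries. EPCAM did so on polymer X alone, and WT1 and MUC16 were under 1 throughout. These markers were not steady. ERBB2, PAX8 and EPCAM were called higher, with log2 fold changes of 2.13, 1.06 and 1.05, where 10.7% of all tested genes were called higher. KRT7, KRT8 and KRT18 were not called, with -0.76, -0.87 and -0.44.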

How the data were processed

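RNA-seq was performed in 4 SKOV3 libraries, 2 of cells on TCP and 2 of spheroids on polymer X. The authors deposited FPKM values for 50078 RefSeq transcripts of hg19, counted with HOMER on exons of both strands and rounded to 3 decimals. The submitters' processing notes also name STAR 2.4.0 and DESeq, without their roles. Trimming is not given in the sources used here. Since strand was not used, overlapping genes share tags.

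Tag totals were recovered from the steps of FPKM times transcript length, which gave whole tags (within 0.1) for 100% of the low values tried. The deposited FPKM were tested with limma 3.58.1 in R 4.3.3 (mean-variance trend, Benjamini-Hochberg adjustment over 11964 genes), and the procedure was checked on simulated data. Counting intervals are exact binomial intervals from scipy 1.17.1 at 95%. Promoters came from RefSeq and matched 9 of the 10 genes, not PTGIS.

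The text names all 10 genes, up to 5 called genes per direction of each of 5 wider lists, and up to 3 of the most abundant genes not called. The genes and lists were chosen with earlier results of these data known. Replicate libraries correlated at 0.998 (TCP) and 0.997 (polymer X) across genes and differed by more than counting error. The closing section gives the alternatives. Protein sequences were not used here.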

Additional observations from a re-analysis of the deposited data

How the results depend on the processing

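Over the named genes and alternatives, 528 values kept their direction and call (for a tag ratio, stayed within its counting interval), 10 lost the call, 1 gained it and 4 changed sign, while 6 tag ratios moved past that interval with 1 polymer X library left out. Counts of calls moved most with the fold minimum. Without it, 4477 of the 11964 tested genes were higher and 5212 lower, with 2 of the 4 tested prostaglandin genes in each direction. With a fold minimum of 2 on the log2 scale, the counts were 281 and 150, with 1 prostaglandin gene higher (PTGS1) and 0 lower. With genes kept from a mean FPKM of 5 upward, where fewer were tested, 702 genes were higher, and higher calls made up 42.2% of all calls in place of 53.2%. Without a filter and with a pseudocount of 0.1, added after seeing the data, 2627 genes and 3 of the 10 genes were higher, and the median log2 fold change of all genes shifted by 0.12. Under quantile normalization 0 of the 10 genes were lower, since PTGES3 had -0.77. In direction, CBR1 (0.27), PRKAR1A (0.085) and CELF1 (0.078) reversed under quantile normalization, and PRKAR1A (0.063) with the longest transcript. The cause was not tested. PTGS1 stayed called under 14 alternatives, with log2 fold changes of 2.55 to 3.28.

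Leaving out a library puts a single library in that group, and limma then assumes it to vary like the others. These fits gave 1 of the 10 genes higher and 1 lower throughout. With the replicate number as a block (paired fit), 1285 genes were higher and 1131 lower. The deviations from the group means of libraries with the same number had a correlation of 0.093, so no pairing was assumed. Depth limits PLA2G4A and PTGER4, with at most 15 tags in a library.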

Other observations

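The stability of PTGS2 mRNA is known to depend on proteins that bind AU-rich elements. Of a list of 12 such factors, 11 were tested, 1 was called higher and 3 were called lower on polymer X, against 10.7% and 9.45% of all tested genes, and the median log2 fold change was -0.11. RBM3, KHSRP and HNRNPD fell by 1.34, 1.26 and 1.16 on the log2 scale. KHSRP and HNRNPD had -0.95 and -0.81 under quantile normalization, and were then not called. AUH, an AU-binding enoyl-CoA hydratase, rose from an FPKM of 4.62 ± 0.125 (SD, n = 2) to 11.0 ± 0.115 (SD, n = 2). ZFP36L1, CELF1 and TIA1, the most abundant factors not called, had log2 fold changes of 0.79, -0.16 and 0.24. ZFP36L1 passed the fold minimum under quantile normalization, at 1.08, where CELF1 had 0.078. The other tested factors not called, named after their values were seen, moved in both directions. ELAVL1 and TIAL1 had log2 fold changes of -0.73 and -0.11, and ZFP36 and ZFP36L2 had 0.70 and 0.57. Whether any of these changes bears on PTGS2 mRNA was not tested.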
